A study of Mus musculus with 6 samples.

Results

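The genes described here are Trp53, which encodes p53, and 9 of its well-known target genes outside the BCL2 family: Mdm2, Ccng1, Cdkn1a, Sesn2, Zmat3, Phlda3, Eda2r, Trp53inp1 and Gdf15. They were chosen by gene symbol, and all 10 were found among the 21720 symbols of the expression table. RNA was sequenced from subcutaneous tumours of H22, a mouse hepatocellular carcinoma cell line, grown in female BALB/c mice aged 6 to 8 weeks at the start, with wild-type genotype in the labels. The control group received 0.5% carboxymethyl cellulose sodium, the vehicle, and the luteolin group received 200 mg/kg luteolin, a plant flavonoid, in both cases by gavage in 0.2 mL once daily for 21 days. Each group gave 3 libraries, and neither the labels nor the methods say that these came from separate mice, so that p values measure only the spread between these samples, which may be technical. The tumours were taken whole, so that a smaller number of cells of a type and less RNA per cell cannot be told apart.

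p53 is a transcription factor that is kept scarce by MDM2, the ubiquitin ligase that marks it for degradation, and that accumulates when DNA is damaged or cells are stressed. It is controlled mainly at the level of protein stability and modification, and its activity is therefore usually read from the mRNA of its targets. These targets arrest the cell cycle (Cdkn1a), restrain p53 itself (Mdm2, Ccng1), adjust metabolism and growth signalling (Sesn2), promote cell death or autophagy (Trp53inp1, Phlda3, Eda2r), bind RNA (Zmat3) or signal to other tissues (Gdf15). Several of them also answer to other pathways, among them the ATF4 branch of the integrated stress response for Sesn2 and Gdf15.

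The estimated counts of control replicates 1 to 3 summed to 69391357, 66256017 and 66655030, and those of luteolin replicates 1 to 3 to 61081637, 80442954 and 63965501. Levels are given as CPM, each count relative to its library's total after TMM normalization, and an observed 0 allows up to 3 counts in a library, a limit that covers counting error only. All 10 genes passed the filter on low counts and lay above 3 counts in every library. The lowest was Gdf15, with 4 counts in control replicate 3. Luteolin replicate 2 stood apart from the other libraries, with the highest CPM of the 6 libraries for 34.0% of the 14963 genes tested. It also had a summed level of 8379 CPM over 7 keratinocyte genes, against 356 and 14.7 CPM in luteolin replicates 1 and 3 and 3.23 to 4.28 CPM in the control libraries. Fold changes that moved by over 1.5 times without luteolin replicate 2 are therefore also given without it.

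The study called genes with DESeq2 at an unadjusted p under 0.05 with a fold change over 2, a threshold applied here to the p values of edgeR. At this threshold DESeq2 gave 2004 up-regulated and 282 down-regulated genes here, the numbers in the paper, and edgeR gave 1687 and 227. In edgeR and in DESeq2, 1 of the 10 genes, Trp53inp1, was down-regulated at it and 0 were up-regulated. Over all genes tested in edgeR, 1.52% were down-regulated and 11.3% up-regulated at that threshold. At an adjusted p under 0.05 in the quasi-likelihood test of edgeR, 0 of the 10 genes were called, where 1.34% of all genes tested were higher and 0.187% lower, and 1 of the 10 was lower and 0 higher at an unadjusted p under 0.05, against 6.44% and 14% of all genes tested. DESeq2 called 1 of the 10 genes, the same Trp53inp1, at an adjusted p under 0.05, where it called 9.58% of the genes it gave one higher and 2.58% lower. The median log2 fold change of the 10 genes was 0.15, against -0.0073 for all genes tested, with 6 values above and 4 below 0. This median was 0.054 without luteolin replicate 2 and -0.059 without luteolin replicate 3. The libraries of the groups overlapped for 8 of the 10 genes. The exceptions were Cdkn1a, above every control library in each luteolin library, and Trp53inp1, below every control library in each. The same complete separation was seen upwards in 15.9% and downwards in 12.8% of all genes tested, so that 1 of 10 in each direction lay near the background.

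**Figure D1:**
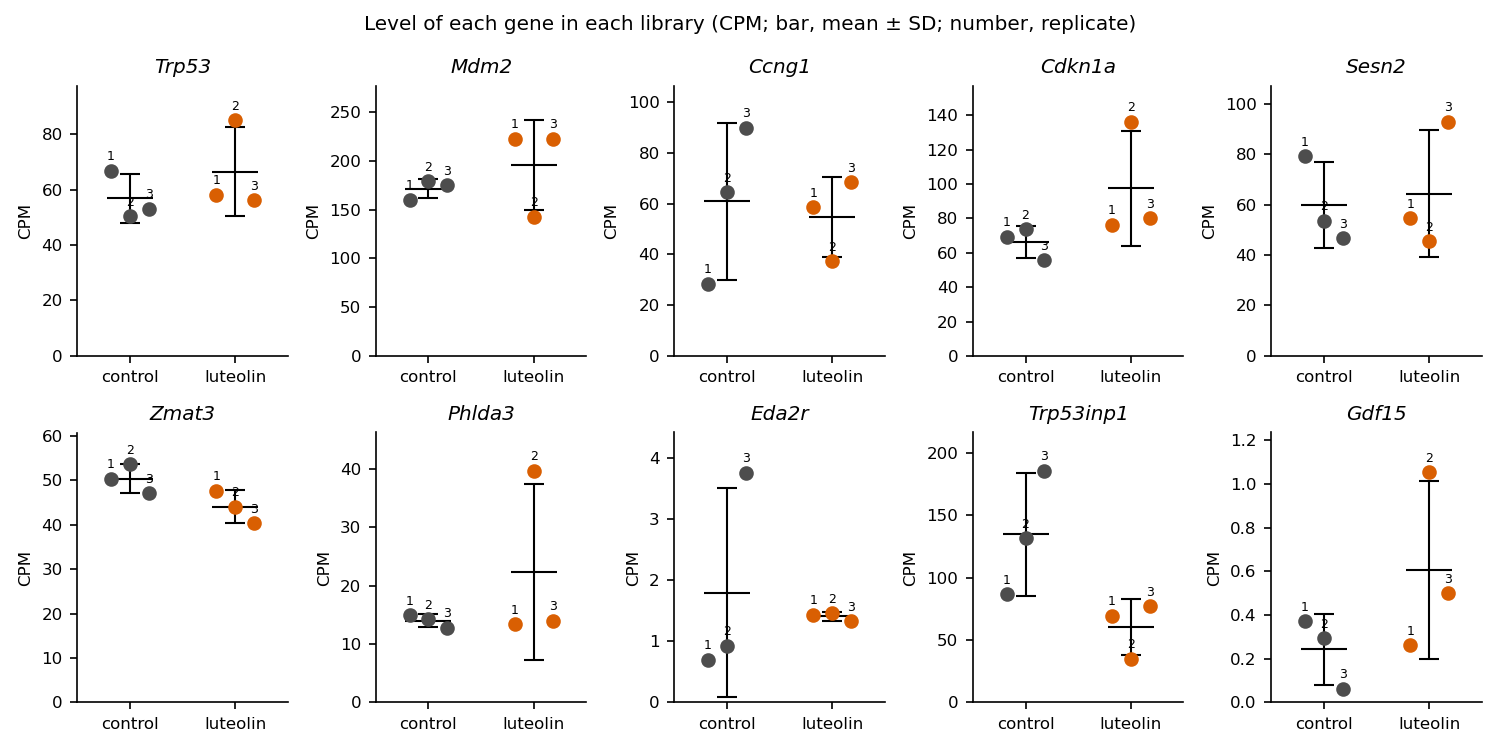
Level of each gene in CPM (vertical axis, from 0) in the 3 control libraries (grey) and the 3 luteolin libraries (orange). Points are libraries with their replicate number, and bars give the mean and SD of a group. Only Cdkn1a and Trp53inp1 show groups that do not overlap, and luteolin replicate 2 is the highest point for Trp53, Cdkn1a, Phlda3 and Gdf15.

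Per length of transcript, Mdm2 was the most abundant of the 10 genes, with a mean level of 36.1 CPM per kb of exon over the 6 libraries (28.1 to 43.8). Cdkn1a followed at 23.0 CPM per kb (15.6 to 38.3), then Sesn2 at 17.9, Ccng1 at 16.5, Trp53 at 15.2, Trp53inp1 at 15.1 and Phlda3 at 11.6. The ranges of these neighbouring genes overlapped. Zmat3 lay below all of them at 4.13 CPM per kb (3.53 to 4.69), and its range met none of theirs. Eda2r (0.272 CPM per kb) and Gdf15 (0.229 CPM per kb) were the lowest, with overlapping ranges. Eda2r had 49 to 243 counts in a library, and only Gdf15 came close to the limit of 3 counts.

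Trp53 itself had 66.8, 50.4 and 53.2 CPM in control replicates 1, 2 and 3 and 58.2, 85.1 and 56.2 CPM in luteolin replicates 1, 2 and 3. Luteolin replicate 2 was the highest and control replicate 1 the next, and the other luteolin libraries lay within the control range. The log2 fold change was 0.23 (standard error [SE] 0.22, 95% interval -0.29 to 0.74, adjusted p = 0.622 in the quasi-likelihood test of edgeR), and it was 0.026 without luteolin replicate 2. The mRNA level says nothing of the amount or activity of the protein.

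The regulators that act back on p53 gave no call either. Mdm2, which encodes the ligase of p53, had 160, 179 and 175 CPM in the control libraries and 223, 143 and 223 CPM in luteolin replicates 1, 2 and 3. Luteolin replicates 1 and 3 lay above every control library, and luteolin replicate 2 lay below all of them. It had a log2 fold change of 0.19 (standard error 0.20, 95% interval -0.29 to 0.67, adjusted p = 0.657 in edgeR's test). Without luteolin replicate 2 it was 0.40 with an unadjusted p of 0.0214 and an adjusted p of 0.201 in the same test, and it was 0.090 and 0.059 without luteolin replicate 1 or 3. Ccng1 encodes cyclin G1, which brings a phosphatase to MDM2. It had 28.4, 64.3 and 89.8 CPM in control replicates 1, 2 and 3, a 3.16-fold range within 1 group, and 58.5, 37.3 and 68.3 CPM in the luteolin replicates. All luteolin libraries lay inside the control range, and the log2 fold change was -0.15 (SE 0.42, adjusted p = 0.885 in edgeR's test), and 0.082 without luteolin replicate 2.

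Cdkn1a encodes p21, the inhibitor of cyclin-dependent kinases through which p53 halts the cell cycle. It had 69.4, 73.8 and 55.6 CPM in control replicates 1, 2 and 3 and 76.2, 136 and 80.2 CPM in luteolin replicates 1, 2 and 3. Every luteolin library lay above every control library, but luteolin replicates 1 and 3 exceeded the highest control by little, and luteolin replicate 2 was 1.74 times the mean of the other luteolin libraries. The mean was 97.5 ± 33.5 CPM in the luteolin group and 66.3 ± 9.51 CPM in the control group (SD, n = 3 each). The log2 fold change was 0.56 (standard error 0.26, 95% interval -0.059 to 1.17), with an adjusted p of 0.288 in the quasi-likelihood test of edgeR, and was 0.26 without luteolin replicate 2. In GENCODE M21, 7.68% of the exon bases of Cdkn1a are shared with AC167363.2, a provisional entry on the opposite strand, and the strand setting of the counting is not given in the sources used here.

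The promoter windows of the genes are shown because the binding site of p53 is built from a known pair of half-sites. They were also chosen because Cdkn1a was the target that lay higher in every luteolin library, as 15.9% of all genes tested did. RefSeq (GRCm38.p6) gave windows from 250 bases before to 50 bases after a start site for 8 of the 10 genes, 10 windows in all, and Zmat3 and Trp53inp1 were not matched. The p53 half-site, a symmetric motif of 10 letters that reads the same on both strands, was found in 1 window each of 4 genes (Trp53, Mdm2, Ccng1 and Cdkn1a) and in 8.36% of all 32851 windows. A pair of CATG cores with 6 bases between them, the spacing of adjacent half-sites, which also reads the same on both strands, was found only in the window of the upstream start of Cdkn1a among the 10 windows, and in 0.712% of all windows. The 30 bases around each half-site are given 5′ to 3′ on the strand of the gene, with the half-site in capitals. The half-site begins 75 bases before the start of Trp53, 186 before that of Mdm2, 185 before that of Ccng1, and 73 and 51 before the upstream start of Cdkn1a.
Trp53, chr11:69580274-69580303, plus strand: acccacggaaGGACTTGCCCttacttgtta
Mdm2, chr10:117710925-117710954, minus strand: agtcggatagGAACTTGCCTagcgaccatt
Ccng1, chr11:40755452-40755481, minus strand: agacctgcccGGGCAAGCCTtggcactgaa
Cdkn1a, first site, chr17:29090896-29090925, plus strand: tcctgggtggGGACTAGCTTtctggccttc
Cdkn1a, second site, chr17:29090918-29090947, plus strand: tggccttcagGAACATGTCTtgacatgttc
The 250 bases before the upstream start of Cdkn1a (window chr17:29090729-29091028, plus strand) follow, with both half-sites and the second core of the pair in capitals. The first core of the pair lies inside the second half-site.
Cdkn1a, upstream start: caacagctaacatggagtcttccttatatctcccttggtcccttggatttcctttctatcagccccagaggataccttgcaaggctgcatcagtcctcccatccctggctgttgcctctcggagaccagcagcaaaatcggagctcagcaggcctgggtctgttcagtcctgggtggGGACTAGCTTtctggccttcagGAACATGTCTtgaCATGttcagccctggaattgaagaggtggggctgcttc
A match describes the letters of these windows and is not a measured binding site, and the windows of the other genes hold no half-site within these 300 bases. The groups overlapped for Trp53, Mdm2 and Ccng1, which also hold a half-site. Any part of these sites in the levels was not tested.

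Trp53inp1, whose product promotes p53-dependent cell death and autophagy, had the smallest p of the set. It had 86.8, 132 and 185 CPM in control replicates 1, 2 and 3 and 69.5, 35.1 and 77.3 CPM in luteolin replicates 1, 2 and 3. Every luteolin library lay below every control library, with luteolin replicate 2 the lowest, and control replicate 1 was nearer to the luteolin libraries than to control replicate 3. The mean was 60.6 ± 22.4 CPM after luteolin and 135 ± 49.4 CPM in the controls (SD, n = 3 each), with a ratio of 0.450 between them. The log2 fold change was -1.15 (standard error 0.38, 95% interval -2.04 to -0.26, unadjusted p = 0.0184, adjusted p = 0.162 in the quasi-likelihood test of edgeR), which ranked 1702 of the 14963 genes tested by p. With each library left out in turn it lay between -1.39 and -0.85, and in edgeR's test its unadjusted p was 0.0529 without control replicate 2 and 0.0710 without control replicate 3. The adjusted p was 0.0368 in DESeq2, 0.0156 in limma's voom with sample quality weights and 0.00977 in edgeR with offsets for GC content and gene length, where the log2 fold change was -0.96, a fold change under 2. The decrease therefore kept its sign in all 17 alternatives and passed an adjusted p of 0.05 in 4 of them.

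**Figure D2:**
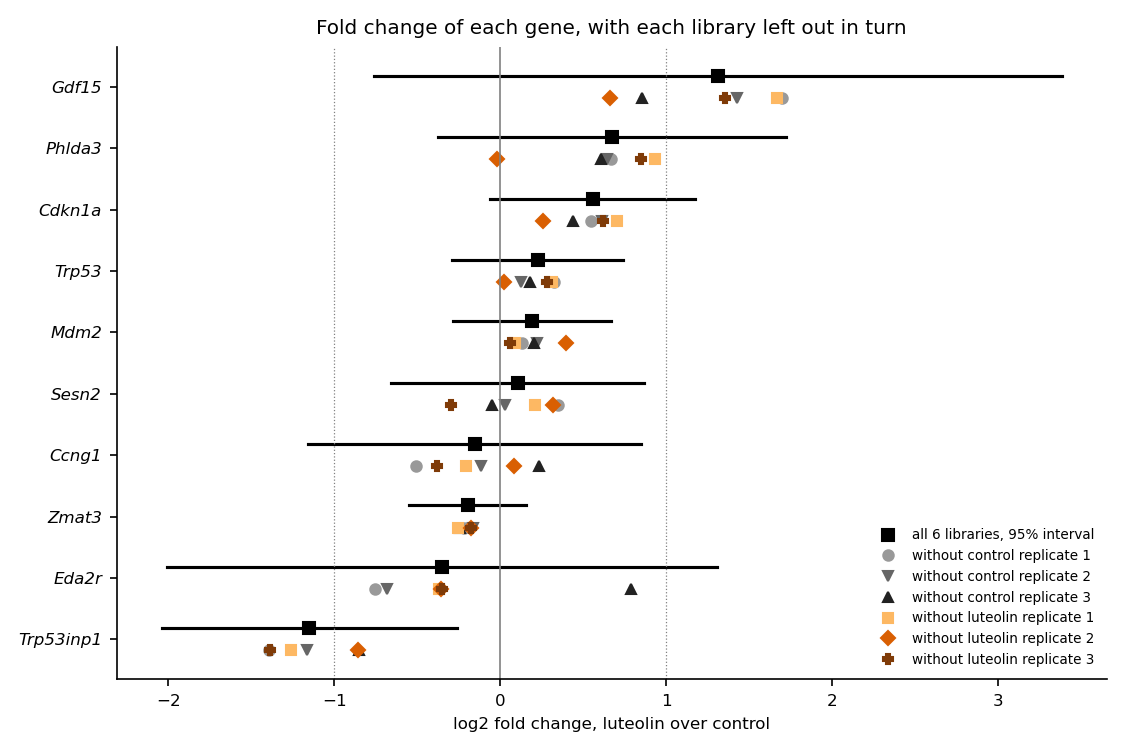
Log2 fold change of each gene, luteolin over control (horizontal axis). Black squares with lines give edgeR's estimate from all 6 libraries with its 95% interval, and the coloured symbols below each line give the estimate with 1 library left out. Dotted lines mark a fold change of 2. The interval of Trp53inp1 alone leaves out 0, and Phlda3, Cdkn1a and Trp53 move towards 0 without luteolin replicate 2.

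For Phlda3 and Eda2r, 1 library stood apart from the others. Phlda3 encodes a pleckstrin-homology protein that restrains AKT. It had 14.9, 14.3 and 12.8 CPM in the control libraries and 13.4, 39.6 and 13.97 CPM in the luteolin libraries. Luteolin replicate 2 was 2.90 times the mean of the other luteolin libraries, which lay in the control range, so that the log2 fold change of 0.67 (SE 0.44, adjusted p = 0.452 in edgeR's test) became -0.016 without it. Eda2r, a receptor of the tumour necrosis factor receptor superfamily, had 0.701, 0.927 and 3.77 CPM in control replicates 1, 2 and 3 and between 1.33 and 1.46 CPM in the luteolin libraries. Here control replicate 3 was the outlying library, and the log2 fold change turned from -0.35 (adjusted p = 0.833 in edgeR's test) to 0.79 without it.

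Zmat3 encodes a zinc-finger protein that binds RNA and is among the tumour-suppressive targets of p53. It was the least variable of the 10 genes, with 50.4, 53.6 and 47.1 CPM in the control libraries and 47.7, 44.1 and 40.3 CPM in the luteolin libraries. The highest luteolin library lay just above the lowest control library. Its log2 fold change was -0.19 (standard error 0.15, 95% interval -0.55 to 0.16, adjusted p = 0.524 in edgeR's test), an interval that leaves out a 2-fold change in either direction.

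Sesn2 and Gdf15, which are also known targets of ATF4, differed in their order of libraries. Sesn2, which encodes sestrin 2, an inhibitor of mTORC1 signalling, had 79.2, 53.5 and 46.6 CPM in control replicates 1, 2 and 3 and 54.7, 45.4 and 92.8 CPM in luteolin replicates 1, 2 and 3. Its lowest and its highest level were both in the luteolin group, and the log2 fold change was 0.11 (SE 0.32, adjusted p = 0.900 in edgeR's test), 0.32 without luteolin replicate 2 and -0.29 without luteolin replicate 3, the library with its highest level. Gdf15, a secreted stress cytokine of the TGF-beta superfamily, had 26, 19 and 4 counts in control replicates 1, 2 and 3 and 16, 88 and 32 counts in luteolin replicates 1, 2 and 3. The log2 fold change of Gdf15 was 1.31, the largest positive value of the set, but its 95% interval ran from -0.76 to 3.39 (adjusted p = 0.459 in edgeR's test), and the value was 0.66 without luteolin replicate 2 and 0.34 in voom. Where 1 read pair counts as 4 units, a count of 4 is a single read pair.

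Part of the spread within groups moved with base composition. How far each gene of a library lay from its 6-library mean was compared with its GC content by Spearman's rho, across genes that share a library and are no replicates. In the control libraries rho was 0.42, -0.17 and -0.52 for replicates 1 to 3, and in the luteolin libraries it was -0.18, 0.43 and -0.36. Control replicate 1 and luteolin replicate 2 were thus the libraries in which GC-rich genes tended to have higher levels. Whether this came from the sequencing or from the cells in the samples was not tested. The transcripts of the 10 genes ranged from 38.8% GC in Trp53inp1, 40.8% in Ccng1 and 40.9% in Eda2r to 53.3% in Trp53, 54.4% in Cdkn1a and 62.6% in Phlda3. In control replicate 1, log2 CPM (here without a prior count) deviated from the mean of the gene by -0.92 for Ccng1 and by -0.97 for Eda2r, and in luteolin replicate 2 by -1.29 for Trp53inp1 and by 1.27 for Phlda3. Other values did not follow GC content. Trp53inp1, lowest in GC content, deviated by 0.017 in control replicate 1, where GC-rich Phlda3 and Cdkn1a stood at -0.15 and -0.18, and Eda2r deviated by 0.084 in luteolin replicate 2. With offsets for GC content and gene length in edgeR, the standard error fell from 0.38 to 0.10 for Trp53inp1, from 0.42 to 0.22 for Ccng1 and from 0.26 to 0.16 for Cdkn1a. The log2 fold change of Cdkn1a was then 0.43, with an unadjusted p of 0.0297 and an adjusted p of 0.139 in that fit, whereas voom with sample quality weights gave 0.16 with an unadjusted p of 0.288. With control replicate 1 and luteolin replicate 2 both left out, a setting chosen after seeing the data, the log2 fold change was -1.08 for Trp53inp1 (adjusted p = 0.0791 in edgeR's test), 0.30 for Cdkn1a and 0.36 for Mdm2.

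**Figure D3:**
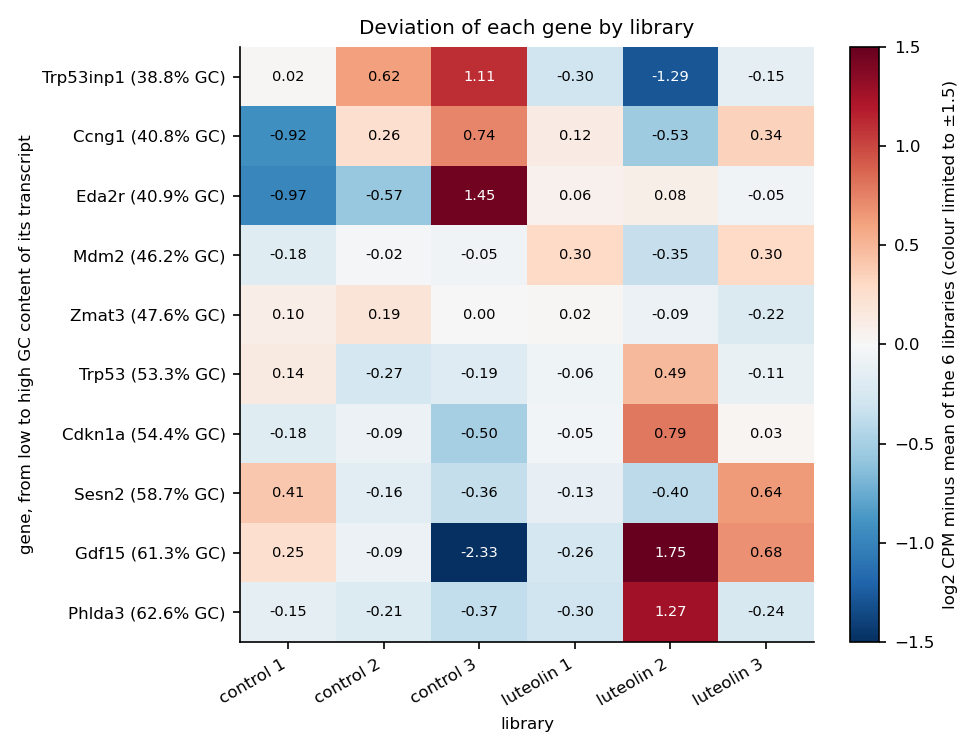
Deviation of log2 CPM of each gene from its mean over the 6 libraries (colour and printed value), for the libraries (horizontal axis) and the genes ordered from low to high GC content (vertical axis). In luteolin replicate 2 the value is -1.29 for Trp53inp1, the gene with the lowest GC content, and 1.75 for Gdf15 and 1.27 for Phlda3, the genes with the highest, while GC-rich Sesn2 stands at -0.40.

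Genes whose pattern was most like that of p53 were sought among 9918 other tested genes with a mean of at least 10 CPM, by the root mean square difference of centred log2 CPM over the 6 libraries. For Trp53 these were Fuca1 (0.038), Rnf167 (0.039) and Pfkfb4 (0.044), each with its highest level in luteolin replicate 2 and the next in control replicate 1. For Cdkn1a they were Polr2i (0.076), Eif5a (0.079) and Leng8 (0.081). None of these genes belongs to the lists used here, which do not hold every p53 target.

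A list of 18 regulators of p53, with the family members Trp63 and Trp73, had 1 gene up-regulated and 0 down-regulated at the study's threshold in edgeR (11.3% and 1.52% of all genes tested), 0 of either in DESeq2, and 0 calls at an adjusted p under 0.05 in edgeR's test. Its median log2 fold change was -0.053, and lay between -0.18 and 0.17 with 1 library left out. At an unadjusted p under 0.05, 3 of the 18 were lower and 1 was higher, against 6.44% and 14% of all genes tested. The 3 became 0 without control replicate 1, control replicate 2 or luteolin replicate 1 and 1 without any other library, and at an adjusted p under 0.05 voom and the GC content and length offsets in edgeR each called 2 genes lower, Atm and Cdkn2a, beside 8.76% and 1.61% of all genes in those fits. The 3 genes in edgeR were Atm, the kinase that signals DNA breaks to p53 (log2 fold change -0.84), Cdkn2a, whose ARF product restrains MDM2 (-0.72), and Trp53bp1, which binds p53 and marks broken DNA (-0.37). Atm had 76.3, 80.6 and 122 CPM in the control libraries and 53.6, 31.6 and 70.5 CPM in the luteolin libraries, without overlap (adjusted p = 0.215 in edgeR's test). Mdm4, the partner of MDM2, and Chek2, a checkpoint kinase, had log2 fold changes of 0.20 (0.43 without luteolin replicate 2) and -0.36, for which edgeR's test gave adjusted p values of 0.780 and 0.413. The up-regulated gene was Trp63, which encodes p63, the p53 relative that maintains stratified epithelia. It passed the filter on low counts only through the luteolin libraries, and with at least 10 counts in every library 17 genes of the list were tested and 0 were up-regulated. It had 13, 4 and 0 counts in control replicates 1, 2 and 3 and 166, 6198 and 33 counts in luteolin replicates 1, 2 and 3. Its order in the luteolin group was that of the summed keratinocyte markers. The log2 fold change of Trp63 was 8.23 (adjusted p = 0.114 in edgeR's test), and 4.25 without luteolin replicate 2. DESeq2 gave Trp63 no p. Trp73 had its highest level in the same library, with 856 counts against 65 to 132 counts in the others.

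In a list of 25 further p53 targets, 8 genes were up-regulated and 0 down-regulated by the study's criteria, beside a background of 11.3% and 1.52%, and 0 calls at an adjusted p under 0.05 in edgeR's test, where 9 had a higher and 1 a lower level at an unadjusted p under 0.05 (14% and 6.44% of all genes tested). DESeq2 called 8 of them higher and 1 lower at an adjusted p under 0.05, beside 9.58% and 2.58% of all its genes. The 8 genes at the study's threshold include Rprm, which passed the filter only through the luteolin libraries, and with at least 10 counts in every library 7 of 24 were up-regulated. The median log2 fold change of the list was 0.50, and 0.044 without luteolin replicate 2, where 7 genes were up-regulated. Sfn, which encodes 14-3-3 sigma, and Perp, a component of desmosomes, are also abundant in epidermis. Sfn had 48 to 57 counts in the control libraries and 785, 18061 and 84 counts in luteolin replicates 1, 2 and 3, and Perp had 310 to 436 counts in the control libraries and 1695, 53397 and 419 counts. Both had the order of the keratinocyte markers across the luteolin libraries, and the log2 fold changes of 6.57 for Sfn and 5.31 for Perp were 3.14 and 1.61 without luteolin replicate 2. The part of those cells in the result was not tested.

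In that list, 9 of the 25 genes were higher in each of the 3 luteolin libraries than in every control library (15.9% of all genes tested). A further 2 were lower in each (12.8%), and 14 overlapped between the groups (71.3%). The 9 include Sfn, Rprm and the genes named next, whose fold changes moved to a different extent without luteolin replicate 2. Dram1, a lysosomal regulator of autophagy, had 22.3, 25.2 and 27.7 CPM in the control libraries and 51.9, 75.1 and 43.6 CPM in the luteolin libraries (log2 fold change 1.18, standard error 0.24, adjusted p = 0.0661 in edgeR's test, and 0.95 without luteolin replicate 2). Ddit4, an mTORC1 inhibitor that is also induced by ATF4, hypoxia and glucocorticoids, had 27.1, 29.6 and 19.6 CPM and 44.3, 57.3 and 61.8 CPM (log2 fold change 1.10, standard error 0.22, adjusted p = 0.0672 in edgeR's test). Fas, the death receptor, had a log2 fold change of 1.72 (1.76 without luteolin replicate 2) and Btg2, an antiproliferative gene, of 1.84 (1.24 without it). Tigar, a bisphosphatase that diverts glycolysis, stood at 1.88 (1.07 without it) and Plk3, a stress-responsive kinase, at 0.65 (0.52 without it). The adjusted p in edgeR's test was 0.108 for Fas, 0.103 for Btg2, 0.159 for Tigar and 0.209 for Plk3. Cd82 had a log2 fold change of 0.69 (adjusted p = 0.258 in edgeR's test). Rprm, which arrests cells in G2, was at 0 counts in every control library and had 20, 16 and 36 counts in the luteolin libraries. Its log2 fold change was at least 2.99 against 3 counts in each control library, and at least 0.99 against 12 counts, the limit where 1 read pair counts as 4 units. Fas is abundant on activated lymphocytes, and the summed level of 6 T-cell markers was 9.516, 13.02 and 12.002 CPM in the control libraries and 37.7, 70.4 and 40.7 CPM in the luteolin libraries. Fas had 1.19, 2.84 and 3.16 CPM in control replicates 1, 2 and 3 and 9.40, 7.74 and 6.57 CPM in luteolin replicates 1, 2 and 3. The part of T cells in the level of Fas was not tested. In the other direction, Tnfrsf10b, the TRAIL receptor, had 214, 206 and 223 CPM in the control libraries and 138, 108 and 130 CPM in the luteolin libraries. Its groups did not overlap, and the log2 fold change was -0.77 (standard error 0.15, unadjusted p = 0.00128, adjusted p = 0.0613 in edgeR's test), short of a 2-fold decrease.

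**Figure D4:**
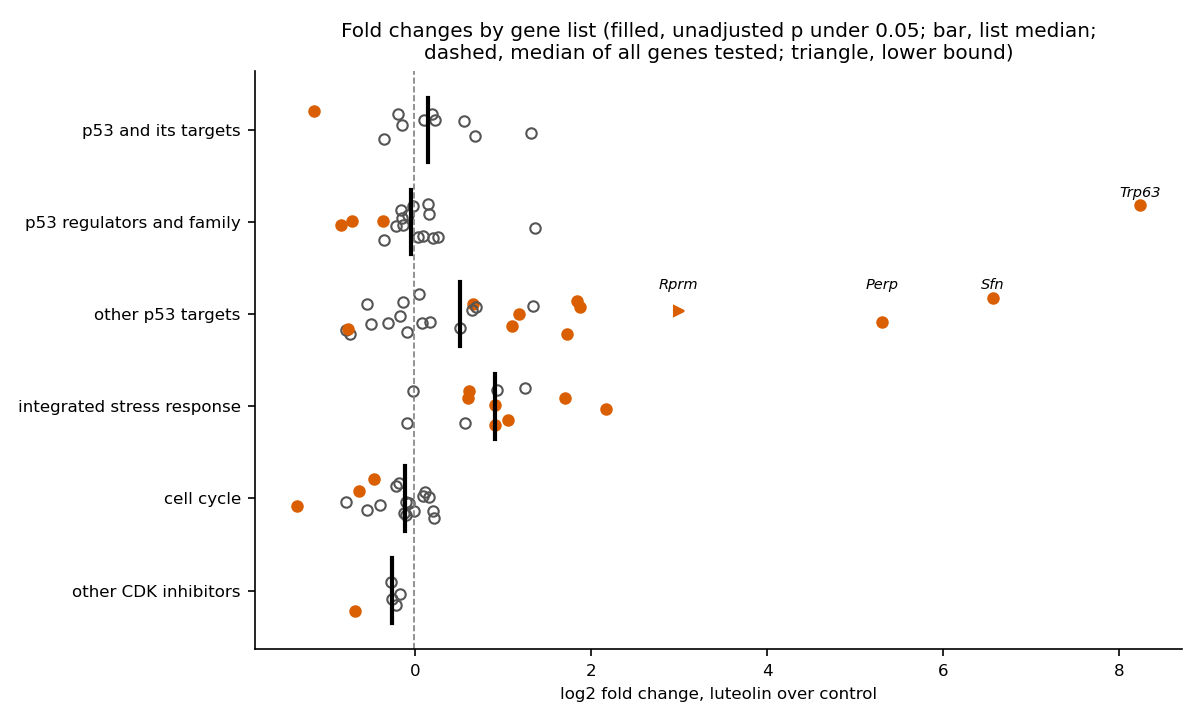
Log2 fold change, luteolin over control (horizontal axis), of the tested genes of 6 lists. Each symbol is a gene, filled where its unadjusted p in edgeR was under 0.05, and the vertical bar is the median of the list. The triangle gives Rprm, at 0 counts in every control library, as a lower bound of 2.99 against 3 counts (0.99 against 12 counts), and the dashed line is the median of all genes tested. The genes of the integrated stress response lie mostly above the dashed line, and Trp63, Perp and Sfn lie far to the right of their lists.

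The integrated stress response, which shares Sesn2, Gdf15 and Ddit4 with p53 and is driven by the transcription factor ATF4, was described with 12 of its genes. Of these, 3 were up-regulated at the study's threshold (11.3% of all genes tested), and 7 had a higher level at an unadjusted p under 0.05 (14%). The 7 became 4 without control replicate 1 or luteolin replicate 3, and 8 without luteolin replicate 2. In edgeR's test 1 gene, Nupr1, passed an adjusted p of 0.05. At that adjusted p, 4 of the 12 passed in DESeq2 (9.58% of all its genes were higher) and 7 in voom (12.6%). With the GC content and length offsets in edgeR, 3 passed (4.54%). In edgeR 0 passed without luteolin replicate 1 or 3 or any 1 control library, and 4 passed without luteolin replicate 2. The median log2 fold change was 0.91, and 1.10 without luteolin replicate 2, where 6 of the 12 were up-regulated. Without luteolin replicate 3 it was 0.45, with 2 of the 12 up-regulated. Nupr1, a stress-induced chromatin protein, had 14.2, 19.9 and 13.5 CPM in the control libraries and 37.0, 64.5 and 53.9 CPM in the luteolin libraries (log2 fold change 1.70, standard error 0.27, adjusted p = 0.0429 in edgeR's test). In edgeR's test without 1 library, its adjusted p lay above 0.05 for each control library and for luteolin replicates 1 and 3, up to 0.207. Atf3, a transcription factor induced by both p53 and ATF4, had 19.6, 23.0 and 17.9 CPM and 44.9, 35.7 and 45.0 CPM (log2 fold change 1.06, adjusted p = 0.0505 in edgeR's test). Slc7a11, the cystine transporter and a gene that p53 is known to repress, had 1.502, 3.10 and 4.12 CPM and 16.2, 7.55 and 15.5 CPM (log2 fold change 2.17, adjusted p = 0.0831 in edgeR's test). Ppp1r15a, which encodes the phosphatase subunit GADD34, Atf4 itself and Ddit3, which encodes CHOP, had log2 fold changes of 0.91, 0.60 and 0.61, with unadjusted p values of 0.00440, 0.0301 and 0.0427 in edgeR. Without luteolin replicate 3 the log2 fold change was 0.40 for Atf4 and 0.40 for Ddit3. Their unadjusted p was under 0.05 in 10 and 8 of the 17 alternatives. Atf4 and Slc7a11 were lowest in luteolin replicate 2 within their group. Of the 12 genes, 10 had a log2 fold change above 0 and 2 below it. The 2 were Psat1 (-0.027, adjusted p = 0.970 in edgeR's test) and Phgdh (-0.094, adjusted p = 0.823 in the same test). The groups overlapped for 5 of the 12 (71.3% of all genes tested), among them Psat1, Phgdh and Asns (0.56, adjusted p = 0.514 in that test).

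p53 lowers the expression of many cell-cycle genes through p21 and the DREAM repressor complex. Of 18 such genes, 1 was down-regulated and 0 were up-regulated at the study's threshold (1.52% and 11.3% of all genes tested), and 0 passed an adjusted p of 0.05 in edgeR's test, where 3 had a lower and 0 a higher level at an unadjusted p under 0.05 (6.44% and 14% of all genes tested). The 3 became 0 without control replicate 3 or luteolin replicate 1 and 1 without control replicate 2 or luteolin replicate 2, and at an adjusted p under 0.05 DESeq2 called 2 and voom 4 of the 18 lower, beside 2.58% and 8.76% of all genes in those fits. The median log2 fold change was -0.12, between -0.29 and -0.039 with 1 library left out. The genes at an unadjusted p under 0.05 were Ccne2 and Ccne1, which encode the E-type cyclins of the G1/S transition (-1.34 and -0.47), and Mki67, the proliferation marker (-0.64). Ccne2, the down-regulated gene, stood at -0.74 without control replicate 3. Mki67 had 559, 701 and 868 CPM in the control libraries and 482, 352 and 536 CPM in the luteolin libraries, without overlap (adjusted p = 0.187 in edgeR's test). Cdk1, the kinase of mitotic entry, had a log2 fold change of -0.40 and separated groups, and 14 of the 18 genes overlapped between the groups, where 71.3% of all genes tested did, among them Ccnb1, Plk1 and Cdc20.

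Markers of other cells moved between the same groups. The summed level of 6 macrophage genes, of which C1qa was the most abundant, was 882, 760 and 843 CPM in the control libraries and 1216, 1686 and 1475 CPM in the luteolin libraries. The sum of 5 neutrophil genes, led by Csf3r, was 17.2, 16.5 and 19.1 CPM against 163, 180 and 70.9 CPM, but Ly6g, a defining neutrophil marker, had 13, 36 and 12 counts in the control libraries and 0, 9 and 33 counts in luteolin replicates 1, 2 and 3. The sum of 6 fibroblast genes, led by Col3a1, was 1575, 1408 and 1511 CPM against 4067, 4976 and 2012 CPM. Among the keratinocyte genes, Krt14, Krt5, Krt1, Krt15, Dsg3 and Lor were at 0 in every control library. The sums of the endothelial, muscle and adipocyte genes overlapped between the groups. The part of these cells in the levels of the p53 targets was not tested. Of the hepatocyte markers, Afp had 59.4, 66.7 and 43.4 CPM in the control libraries and 32.7, 41.8 and 38.8 CPM in the luteolin libraries, without overlap (log2 fold change -0.58, unadjusted p = 0.0269, adjusted p = 0.187 in edgeR's test). Gpc3, a fetal liver and tumour marker, had 1.19, 0.633 and 1.30 CPM against 8.24, 9.34 and 3.13 CPM (log2 fold change 2.73, unadjusted p = 0.00170, adjusted p = 0.0665 in edgeR's test). Of the others, Apoa1 and Ttr were at 0 in at least 1 control library and Alb ranged from 0.868 to 133 CPM. Serpina1a had between 10 and 582 counts.

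**Figure D5:**
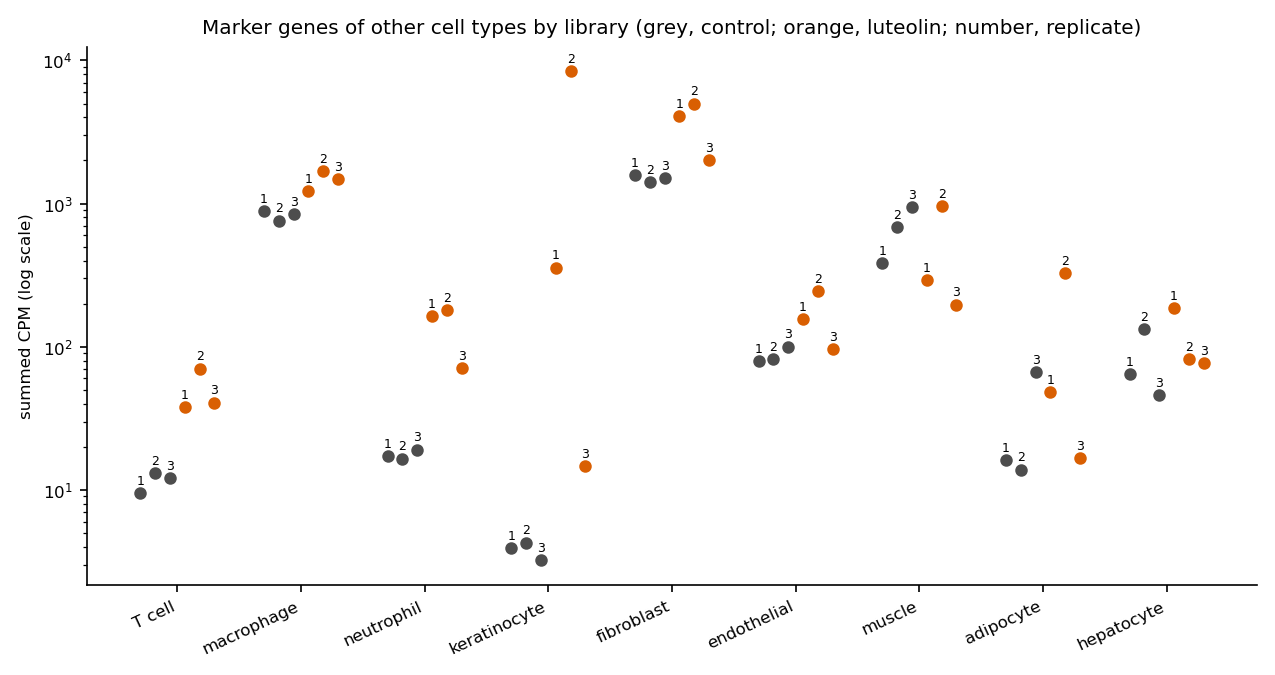
Summed CPM of marker genes of 9 cell types (vertical axis, log scale) in each library. Grey points are control libraries, orange points are luteolin libraries, and numbers are replicates. The lowest luteolin point lies above the highest control point for the T-cell, macrophage, neutrophil, keratinocyte and fibroblast sums, and the keratinocyte sum spans from 14.7 to 8379 CPM within the luteolin group.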

How the data were processed

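The authors deposited a table of whole-number values for 21720 gene symbols in 6 libraries, analysed as estimated counts. Of the values from 1 to 40, 44.8% are multiples of 4, so that 1 unit need not be 1 read pair. The submitters' processing notes name bcl2fastq 2.0, HISAT2, StringTie and DESeq2 and the builds mm39 and rn6, with no role or order. The paper names Trizol and a TruSeq kit, the labels an RNeasy and a SMARTer kit. All 6 columns were used, 0 were left out, and the table carries no positions.

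Counts were compared in R 4.3.3 with edgeR 4.0.16 (TMM, filterByExpr, quasi-likelihood test, no covariates; 14963 genes tested, two-sided p values adjusted by the Benjamini-Hochberg method over all of them). Standard errors and 95% intervals come from the same fit. Totals ranged from 61081637 to 80442954. Log2 CPM had a prior count of 2. Exon lengths, GC content and overlapping exons came from GENCODE M21 (GRCm38), promoters from RefSeq. Alternatives were DESeq2 1.42.0, voom of limma 3.58.1, other normalizations and filters, values divided by 4, the replicate number as a block, offsets for GC content and length, and each library left out. The fit was tested on simulated data. Named genes are the 10 members, the genes with the smallest p of each list other than the cell-type markers, and others of these lists where their role is described. Among the cell-type markers, the genes named are not always those with the smallest p. The genes and lists were chosen with earlier results of these data known.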

Additional observations from a re-analysis of the deposited data

How the results depend on the processing

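Among the 10 genes, Cdkn1a, Mdm2, Trp53, Zmat3, Gdf15 and Trp53inp1 kept their sign in all alternatives that tested them, and 0 of the 10 were up-regulated or higher at an adjusted p under 0.05 in any. The count of members lower at an adjusted p under 0.05 was 1 in DESeq2, in voom, and with the GC content and length offsets without and with the replicate block. The count of members down-regulated at the study's threshold was 0 in voom and with those offsets without and with the block, and 0 to 1 with a library left out, being 0 without control replicate 2 or 3 or luteolin replicate 2. Over all genes, calls at an adjusted p under 0.05 (200 higher and 28 lower in edgeR) numbered 1543 and 415 in DESeq2, 1886 and 1311 in voom, 345 and 47 with at least 10 counts in every library, 327 and 46 with values divided by 4, 664 and 235 with the GC content and length offsets, and 115 higher with control replicate 1 and luteolin replicate 2 left out, a setting chosen after seeing the data. At the study's threshold, voom gave 498 lower genes and that last setting 1081 higher genes. With 1 library left out, the counts ranged from 0 to 276 higher and 0 to 36 lower at an adjusted p under 0.05, and from 1139 to 2104 higher and 140 to 305 lower at the study's threshold. The replicate numbers did not pair the samples (correlations of the deviations -0.196, -0.0920 and 0.0630 for numbers 1, 2 and 3), and with the number as a replicate block 34 genes were higher and 1 lower at an adjusted p under 0.05, and 0 of the 12 genes of the integrated stress response passed.

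Log2 fold changes that changed sign were those of Eda2r (0.42 in voom, 0.089 with the block, 0.036 with the offsets, 0.22 with block and offsets), Ccng1 (0.043 with the offsets, 0.085 with block and offsets), Sesn2 (-0.0059 with block and offsets) and Trp73 (-0.33 in voom and -0.24 with control replicate 1 and luteolin replicate 2 left out). With 1 library left out, values ranged from -0.51 to 0.24 for Ccng1, from -0.29 to 0.35 for Sesn2, from -0.016 to 0.94 for Phlda3, from -0.76 to 0.79 for Eda2r, from -0.35 to 1.82 for Trp73 and from -0.048 to 0.48 for Mdm4. The cause was not tested. Gdf15 was not tested under the stricter filter or with values divided by 4. It had 4 to 88 counts in a library, and the standard error of its log2 fold change was 0.88.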

Other observations

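The inhibitors of cyclin-dependent kinases other than Cdkn1a were examined with 5 genes. Their log2 fold changes had a median of -0.26, against -0.0073 for all genes tested. This median was -0.43 without luteolin replicate 1 and -0.46 in voom. The groups overlapped for 4 of the 5 genes (71.3% of all genes tested). In edgeR's test 0 passed an adjusted p of 0.05, and 1 was lower at an unadjusted p under 0.05 (6.44% of all genes tested). DESeq2 and voom each called 1 of the 5 lower at an adjusted p under 0.05, beside 2.58% and 8.76% of all genes in those fits. That gene was Cdkn2b, which encodes p15, with 45.9, 42.5 and 38.1 CPM in control replicates 1, 2 and 3 and 30.5, 23.3 and 25.2 CPM in luteolin replicates 1, 2 and 3. Its log2 fold change was -0.68 (adjusted p = 0.109 in the quasi-likelihood test of edgeR, 0.0136 in DESeq2 and 0.0193 in voom) and its groups did not overlap. Cdkn1b, which encodes p27, had 14.7 to 49.9 CPM in the control libraries and 20.1 and 29.9 CPM in luteolin replicates 2 and 3, with luteolin replicate 1 at 39.9994 CPM. Plk2, a stress-induced kinase among the p53 targets, had 97.0, 160 and 182 CPM in the control libraries and 113, 58.0 and 91.2 CPM in the luteolin libraries, a log2 fold change of -0.74 with an adjusted p of 0.251 in edgeR's test.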
